A study of Homo sapiens with 16 samples.

Results

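The mRNAs described here encode the enzymes, with partner proteins, that write N6-methyladenosine (m6A) into RNA, the methyl mark that the bait ALKBH5 removes. They were taken by gene name from both deposited tables of a RIP-seq study, and all 10 named genes were found, of 16324 genes listed in each table. The 10 are METTL3, METTL14, WTAP, VIRMA, ZC3H13, CBLL1, RBM15 and RBM15B, which form the main nuclear complex and its adaptors, with METTL16 and METTL5, which methylate RNA apart from it. All 10 are called writers below, whether enzyme or partner. In RIP-seq, RNA that comes down with a tagged protein is sequenced and set against other RNA of the same kind of cell. Per the labels, all libraries come from UM-SCC-1, an established head and neck squamous carcinoma line, infected with lentivirus and selected with puromycin. Pull-downs on StrepTactin-XT came from cells with strep-ALKBH5 (3 libraries), strep-RBM33 (2 libraries) or strep-Vec (3 libraries), a vector group whose titles read Strep-Vec-1. Input RNA of the same 3 kinds of cell, in the same order, gave 3, 2 and 3 libraries, for 16 in all. Whether the cells' own copies of the bait genes were kept is not stated. The design asks whether both proteins bind largely the same RNAs. The series' design also names strep-ALKBH5 cells with RBM33 siRNA#1 or siRNA#2, which are not analysed here.

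Per gene, each deposited table lists a fold change on the log2 scale, the mean abundance in log2 CPM (reads scaled to library size), an F statistic and p-values. Neither table names the 2 groups compared or says which of them is on top of the ratio, so only the sign in the tables is used. Both tables carry the label siCtrl, which no sample title names. Below, a value with ALKBH5 or with RBM33 is one from that protein's table. No value per library is held, so the depth of the libraries is unknown and no value per sample can be shown. A 95% interval was therefore worked out for each member from its log2 fold change, F and p-value. It covers only the spread between libraries as the fit estimated it, which may be technical, since no label says that replicates were separate cultures. The degrees of freedom behind it were 13.2 with ALKBH5 and 11.2 with RBM33, the same for every member. The fit may therefore take part of that spread from other genes. A gene counts as called below at an adjusted p under 0.05. Whether the tables share libraries is not stated, and no difference between them was tested.

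The labelled cell type could be checked only through average abundance. Of 12 squamous epithelial markers 8 were not listed in either table, KRT5, KRT14 and TP63 among them. EGFR, a growth factor receptor of epithelia, averaged 4.61 log2 CPM in the authors' deposited ALKBH5 table and 4.43 in the RBM33 one, and CDH1, the epithelial cadherin, 0.60 and 0.33. These were the highest and the lowest of the squamous markers listed. Of 7 markers of neurons and of embryonic kidney lines 5 were listed. NEFL and NEFM, the light and medium neurofilament chains, averaged 8.10 and 7.72 log2 CPM in the authors' deposited ALKBH5 table and 7.42 and 7.18 in the RBM33 one. The others listed, PAX2, LHX1 and CHGA, were far lower, at 1.83, 1.79 and -0.29 log2 CPM in the authors' deposited ALKBH5 table. In the authors' deposited RBM33 table they averaged 1.85, 0.72 and 1.51. Of 3 markers of simple epithelia 2 were listed, the keratins KRT8 and KRT18, whereas fibroblast (2 of 5), immune (1 of 4) and endothelial markers (0 of 3) were few. The markers thus do not bear out the labelled squamous identity, so the cells are called by their label only. What these levels do to the values below was not tested.

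Background helps in reading the members. METTL3 and METTL14 form the heterodimer that methylates adenosines of nascent mRNA in the nucleus, mostly near stop codons and in long internal exons. METTL3 holds the active site and METTL14 helps to grip the RNA. WTAP, VIRMA, ZC3H13 and CBLL1 keep the dimer in nuclear speckles and steer where it acts, while RBM15 and RBM15B bind uridine-rich RNA and bring the complex to it. METTL16 methylates the U6 small nuclear RNA and hairpins of MAT2A mRNA, and METTL5, with its partner TRMT112, methylates the 18S ribosomal RNA. ALKBH5 removes m6A, so the writers' mRNAs are those of the opposing arm of the same pathway.

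The writers' mRNAs did not move as one group. RBM15, METTL3 and ZC3H13 were called positive in each table, and METTL5, WTAP and CBLL1 were called negative in each. VIRMA and RBM15B were called, positive, only among the RBM33 values, and METTL14 and METTL16 were called in neither. In the authors' deposited ALKBH5 table, 3 of 10 members were positive and 3 negative, where 30.5% of all genes were positive and 29.1% negative. Of its protein-coding genes, 27.5% had a positive call and 33.3% a negative one. In the authors' deposited RBM33 table, 5 of 10 were positive and 3 negative, against 24.0% and 27.0% of all genes and 21.5% and 31.2% of protein-coding genes. With so many genes called in each table, a call on its own does not set a member apart, and its size and interval are given below. The members' median was 0.20 in the authors' deposited ALKBH5 table, where that of all genes was 0.03 and that of protein-coding genes -0.08. For RBM33 it was 0.38 in the authors' deposited table, beside -0.02 for all genes and -0.13 for protein-coding genes.

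**Figure D1:**
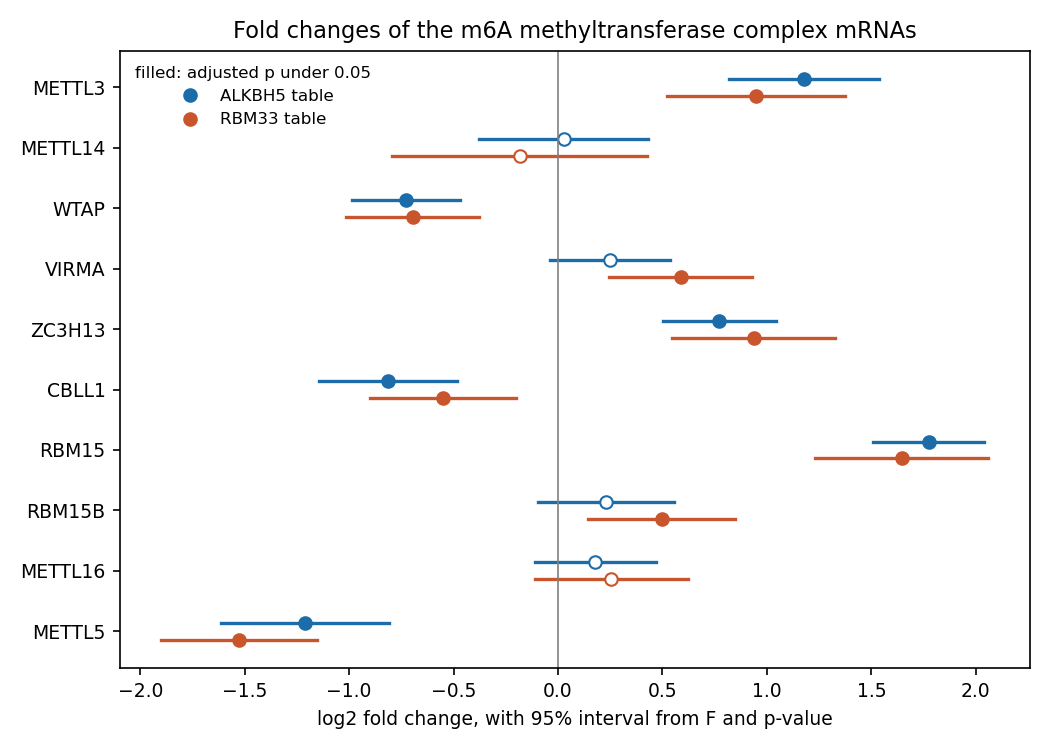
The log2 fold change of each member (x axis, log2 units) is drawn as a point with its 95% interval, the ALKBH5 table above the RBM33 table in each row. Filled points have an adjusted p under 0.05: RBM15, METTL3 and ZC3H13 lie right of 0 and METTL5, WTAP and CBLL1 left of 0 in both tables, and METTL14 and METTL16 are open in both.

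The partners of the core dimer stood apart. METTL3 (ENSG00000165819, hg38 chromosome 14, 21498133 to 21511342, minus strand) stood at 1.18 on the log2 scale in the authors' deposited ALKBH5 table (interval 0.82 to 1.54, adjusted p = 4.16e-05). That is a ratio of 2.26. In the authors' deposited RBM33 table METTL3 had 0.95 (interval 0.52 to 1.37, adjusted p = 0.00178). METTL14 (ENSG00000145388, chromosome 4, 118685392 to 118715433, plus strand) stood at 0.03 (interval -0.38 to 0.43, adjusted p = 0.913) in the authors' deposited ALKBH5 table. It had -0.18 with RBM33 in the authors' deposited table (interval -0.79 to 0.43, adjusted p = 0.611). The METTL14 intervals reach neither METTL3 value nor, for either bait, the lower end of the METTL3 interval. METTL3 lay above 86.0% of protein-coding genes in the authors' deposited ALKBH5 table and above 83.0% in that for RBM33, and METTL14 above 54.0% and 48.0%. METTL14 was also the least abundant writer in the ALKBH5 fit, at an average log2 CPM of 4.69 in the authors' deposited table, and had the widest interval of the 10 in each table. Its interval holds values of moderate size on either side of 0.

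The regulatory subunits went both ways. WTAP (ENSG00000146457, chromosome 6, 159725585 to 159756319, plus strand), the scaffold that holds the dimer in speckles, had -0.73 in the authors' deposited ALKBH5 table (interval -0.99 to -0.47, adjusted p = 0.000145). Its value with RBM33 was -0.70 (interval -1.01 to -0.38, adjusted p = 0.00194) in the authors' deposited table. CBLL1 (ENSG00000105879, chromosome 7, 107743949 to 107761667, plus strand), a RING-finger protein also called HAKAI, was likewise negative. It had -0.82 (interval -1.15 to -0.49, adjusted p = 0.000437) in the authors' deposited ALKBH5 table and -0.55 (interval -0.90 to -0.20, adjusted p = 0.0135) in the authors' deposited RBM33 table. ZC3H13 (ENSG00000123200, chromosome 13, 45954465 to 46052759, minus strand), a zinc finger protein that keeps the complex in the nucleus, was positive. Its values were 0.77 (interval 0.50 to 1.04, adjusted p = 0.000135) with ALKBH5 and 0.94 (interval 0.55 to 1.33, adjusted p = 0.00108) with RBM33 in the authors' deposited tables. VIRMA (ENSG00000164944, chromosome 8, 94487689 to 94553529, minus strand), the largest subunit and the one that directs methylation towards the 3′ end of mRNAs, missed the threshold with ALKBH5 at 0.25 in the authors' deposited table (interval -0.04 to 0.53, adjusted p = 0.123). Its RBM33 value was 0.59 (interval 0.25 to 0.93, adjusted p = 0.00823) in the authors' deposited table. The VIRMA intervals overlap, so a call for 1 bait alone does not show that the baits differ.

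The 2 adaptors are paralogs but did not share a value. RBM15 (ENSG00000162775, chromosome 1, 110338506 to 110346681, plus strand) had the highest value of the writers in both comparisons, at 1.77 (interval 1.51 to 2.04, adjusted p = 1.11e-07) in the authors' deposited ALKBH5 table, a ratio of 3.42. For RBM33 it had 1.65 (interval 1.23 to 2.06, adjusted p = 3.78e-05), a ratio of 3.13, in the authors' deposited table. It lay above 93.6% of protein-coding genes in the authors' deposited ALKBH5 table and above 93.8% in that for RBM33. RBM15B (ENSG00000259956, chromosome 3, 51391285 to 51397908, plus strand) had 0.23 (interval -0.09 to 0.55, adjusted p = 0.207) in the authors' deposited ALKBH5 table. Its RBM33 value was 0.50 (interval 0.15 to 0.85, adjusted p = 0.0223) in the authors' deposited table. The RBM15 and RBM15B intervals do not overlap in either table. RBM15B is listed with a length of 6624 bases over a span of 6624, so its listed exons fill the gene, while those of RBM15 (4670 bases) fill 57.1% of its span. Reads of paralogs can be shared where their sequences match, and no source used here says how such reads were counted.

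Of the writers outside the complex, METTL16 was called in neither table and METTL5 was the most negative member. METTL16 (ENSG00000127804, chromosome 17, 2405562 to 2511891, minus strand) had 0.18 (interval -0.11 to 0.47, adjusted p = 0.27) with ALKBH5 and 0.25 (interval -0.11 to 0.62, adjusted p = 0.227) with RBM33 in the authors' deposited tables. METTL5 (ENSG00000138382, chromosome 2, 169810081 to 169824931, minus strand) had -1.21 (interval -1.61 to -0.81, adjusted p = 8.34e-05) in the authors' deposited ALKBH5 table. Its RBM33 value was -1.53 (interval -1.90 to -1.15, adjusted p = 3.05e-05) in the authors' deposited table. Only 13.3% of protein-coding genes lay below METTL5 in the authors' deposited ALKBH5 table, and 7.71% in that for RBM33.

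Ordered by value, the members fell into RBM15, METTL3, ZC3H13, VIRMA, RBM15B, METTL16 and METTL14, followed by WTAP, CBLL1 and METTL5 with ALKBH5 and by CBLL1, WTAP and METTL5 with RBM33. Most neighbours in that order had overlapping intervals, RBM15 and METTL3 included, and the differences between neighbours were not tested. The neighbours whose intervals did not overlap were METTL14 over WTAP in the ALKBH5 comparison and WTAP over METTL5 in the RBM33 comparison. With a minimum size of 1 log2 unit, 2 members were called positive (RBM15 and METTL3) and 1 negative (METTL5) in the authors' deposited ALKBH5 table, where 21.0% and 16.2% of all genes were. In the authors' deposited RBM33 table, 1 was positive (RBM15) and 1 negative (METTL5), beside 17.1% and 16.7% of all genes. At an adjusted p under 0.01 the counts stayed at 3 and 3 with ALKBH5 (24.4% and 23.6% of all genes in the authors' deposited table). They were 4 positive and 2 negative with RBM33 (16.6% and 21.0% of all genes in the authors' deposited table), since RBM15B and CBLL1 dropped out.

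**Figure D2:**
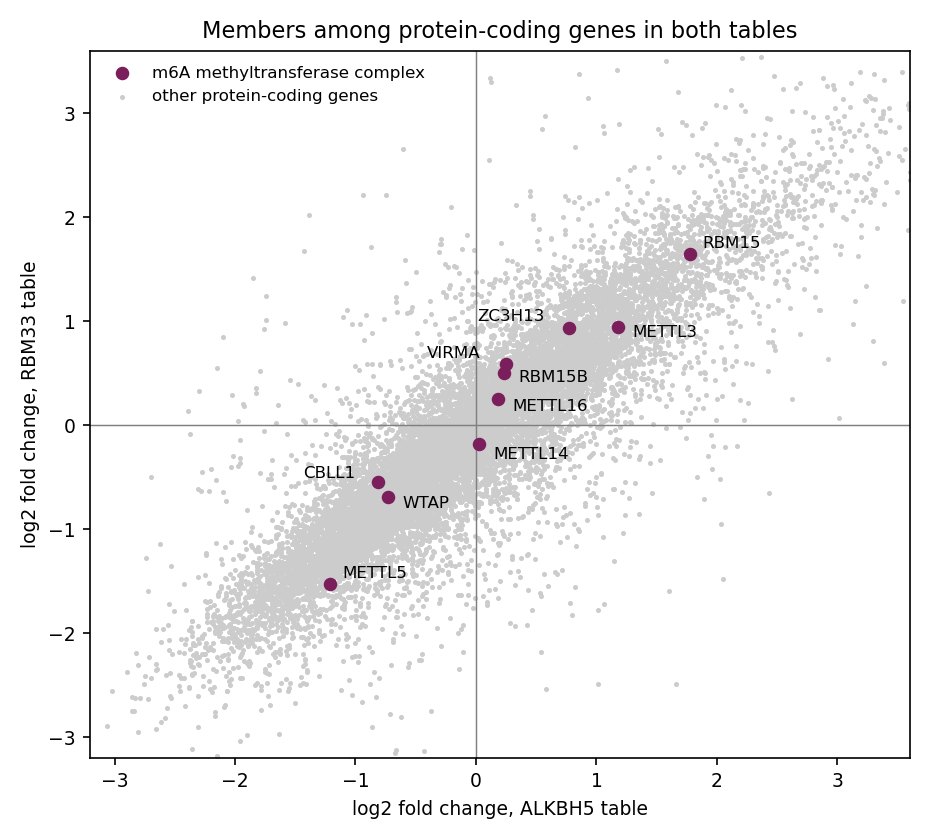
Each point is 1 protein-coding gene by its log2 fold change in the ALKBH5 table (x axis) and the RBM33 table (y axis), with the 10 members in purple, and 107 of 13210 genes lie outside the axes. RBM15 is at 1.77 and 1.65 and METTL5 at -1.21 and -1.53, and the members lie within the cloud of other genes.

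To show the genes at the ends of the set and the catalytic subunit as genomic loci, the 250 bases before the RefSeq start of RBM15, METTL3 and METTL5 are printed (RefSeq, GRCh38.p14). RIP-seq measured RNA and not these windows. They lie at chr1:110339127-110339376 on the plus strand, chr14:21511341-21511590 on the minus strand and chr2:169824906-169825155 on the minus strand, each written 5′ to 3′ on the gene's own strand. The RBM15 window lies inside the span that the deposited tables list for the gene. Capitals mark the letters CCAAT (bound by NF-Y), CCGGAA (which holds the ETS core GGAA) and CACGTG (the E-box). They were searched on both strands, with motifs chosen after the windows were read.
RBM15: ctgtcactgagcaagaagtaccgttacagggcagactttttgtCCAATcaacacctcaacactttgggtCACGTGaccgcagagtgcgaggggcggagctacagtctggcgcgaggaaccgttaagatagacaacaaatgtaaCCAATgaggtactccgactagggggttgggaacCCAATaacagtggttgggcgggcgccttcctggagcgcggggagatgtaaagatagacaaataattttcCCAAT
METTL3: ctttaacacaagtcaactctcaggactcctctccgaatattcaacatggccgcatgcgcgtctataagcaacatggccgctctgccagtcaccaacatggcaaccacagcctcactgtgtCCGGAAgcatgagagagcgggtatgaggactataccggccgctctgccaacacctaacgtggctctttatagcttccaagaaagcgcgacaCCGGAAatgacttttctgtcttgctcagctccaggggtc
METTL5: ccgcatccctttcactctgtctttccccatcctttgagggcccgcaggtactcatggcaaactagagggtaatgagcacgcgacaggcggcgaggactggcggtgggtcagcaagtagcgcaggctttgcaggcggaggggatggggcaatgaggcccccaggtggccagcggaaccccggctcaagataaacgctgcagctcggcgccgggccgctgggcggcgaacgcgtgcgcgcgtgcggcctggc
The RBM15 window holds 4 CCAAT and 1 CACGTG, that of METTL3 holds 2 CCGGAA, and none of these letters occurs in that of METTL5. RefSeq windows matched 9 of the members, WTAP with a pair, and VIRMA was not matched. CCAAT occurred in 6 of the 10 members' windows and in 32.0% of all 35116 promoter windows of that length. CCGGAA occurred in 5 of 10, where the share of all windows was 14.5%, and CACGTG in 2 of 10, where it was 6.34%. METTL3 (2), METTL14 (2), ZC3H13, CBLL1 and METTL16 (1 each) carried CCGGAA, so genes with positive, negative and uncalled RNA values all did. CCAAT was present in RBM15 (4) and once each in METTL14, WTAP, ZC3H13, CBLL1 and METTL16. The bases C and G made up 51.6% of the RBM15 window, 53.2% of that of METTL3 and 67.2% of that of METTL5. A match is a description of letters and not a bound site.

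Listed gene length, the exon bases listed per gene and not the length of 1 mRNA, was set beside the values, since longer genes had higher medians in both tables. Over the 10 members, Spearman's rho between length and log2 fold change was 0.26 with ALKBH5 and 0.24 with RBM33 in the authors' deposited tables, a description of 10 genes measured in the same libraries. METTL5 was the shortest member at 2865 bases, and only 19.3% of protein-coding genes are shorter. The 501 protein-coding genes nearest to METTL5 in length (2719 to 3014 bases) had a median of -0.48 in the authors' deposited ALKBH5 table and -0.57 in that for RBM33. METTL5 was lower than those by a difference of -0.73 with ALKBH5 and -0.95 with RBM33, computed from the authors' deposited tables. RBM15 ran the other way. Genes of its length had medians of -0.27 (ALKBH5) and -0.30 (RBM33) in the authors' deposited tables, and RBM15 was higher than these by 2.04 and 1.95.

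VIRMA (10775 bases), ZC3H13 (10265 bases) and METTL16 (8934 bases) are the longest members. Genes as long as VIRMA had a median of 0.46 for each bait in the authors' deposited tables, and VIRMA differed from it by -0.21 with ALKBH5 and 0.13 with RBM33. ZC3H13 remained higher than genes of its length, by 0.31 with ALKBH5 and 0.49 with RBM33, from the authors' deposited tables. METTL16 was close to its length class, with differences of -0.09 (ALKBH5) and -0.08 (RBM33) from the authors' deposited tables. METTL3 differed from genes of its length by 1.10 and 0.97, and WTAP by -0.75 and -0.64, with ALKBH5 and RBM33 in the authors' deposited tables. CBLL1 differed by -0.72 and -0.35, METTL14 by -0.11 and -0.35 and RBM15B by 0.18 and 0.47 in the same order from the authors' deposited tables. RBM15, METTL3, ZC3H13, WTAP, CBLL1 and METTL5 thus kept their sign against genes of like length for both baits.

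**Figure D3:**
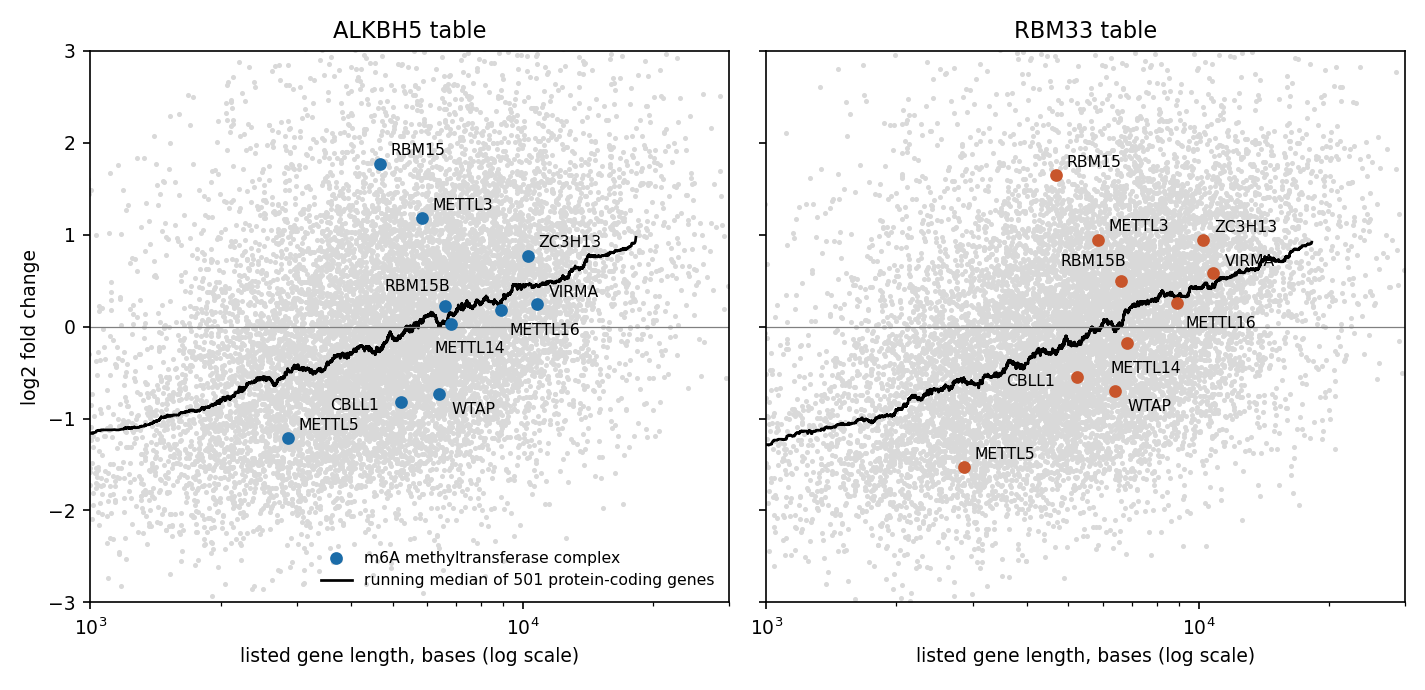
Log2 fold change (y axis) against listed gene length in bases (x axis, log scale) is shown for protein-coding genes (grey) and the members (coloured), with the running median of 501 protein-coding genes as a black line; genes outside the axes are not drawn. RBM15 lies 2.04 (ALKBH5, left) and 1.95 (RBM33, right) over the line, and METTL16 lies within 0.09 of it.

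Abundance was compared per kilobase of listed length, as an average over all libraries of a fit. WTAP was the most abundant writer on that scale, with log2 CPM per kilobase of 4.69 with ALKBH5 and 4.78 with RBM33 from the authors' deposited tables. RBM15 had 4.48 and 4.32, METTL5 3.48 and 4.28, and ZC3H13 3.51 and 3.62, in the same order. METTL3 had 2.81 and 2.28, and with RBM33 it lay under METTL16 at 2.37. At the low end METTL14 had 1.91 and 2.04, and VIRMA 1.93 and 2.15, from the authors' deposited tables. All 10 members exceeded the median gene in average abundance for both baits, at least 4.69 beside 4.05 log2 CPM in the authors' deposited ALKBH5 table. METTL5 averaged 4.999 log2 CPM in the authors' deposited ALKBH5 table and 5.80 in that for RBM33, and METTL3 5.36 and 4.83. Whether the tables were scaled alike is not stated.

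6 of the 10 members overlap a listed gene on the opposite strand, and none overlaps one on its own strand. The libraries keep strand information, per the labels, but no source used here gives the strand setting of the counting. A member's values may therefore hold reads of its partner. Overlaps are given for whole gene spans and not for exons, and the abundances compared here are not per kilobase. SSB, which encodes the La protein, covers 13.4% of the METTL5 span and was 5.32 times as abundant as METTL5 in the authors' deposited ALKBH5 table and 3.09 times in that for RBM33. SSB had -1.63 (adjusted p = 1.55e-07) with ALKBH5 and -1.55 (adjusted p = 3.28e-05) with RBM33 in the authors' deposited tables, negative like METTL5. The WTAP span lies wholly within that listed for SOD2, the mitochondrial superoxide dismutase. SOD2 was negative too, at -1.19 (adjusted p = 2.82e-06) and -1.21 (adjusted p = 4.97e-05), with ALKBH5 and RBM33 in the authors' deposited tables.

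TOX4, a chromatin-bound HMG-box protein gene, overlaps the last 1043 bases of METTL3, 7.90% of its span, and had the opposite sign. It was 1.46 times as abundant as METTL3 in the authors' deposited ALKBH5 table and 2.07 times in that for RBM33. Its values were -0.84 (adjusted p = 3.36e-05) with ALKBH5 and -1.05 (adjusted p = 0.000168) with RBM33 in the authors' deposited tables. DCAF1, a substrate receptor of a ubiquitin ligase, covers 30.8% of RBM15B and was positive, at 0.61 (adjusted p = 0.00234) and 1.32 (adjusted p = 0.0008), with ALKBH5 and RBM33 in the authors' deposited tables. The partners of ZC3H13 (CPB2-AS1) and CBLL1 (AC002467.1) are long noncoding RNAs of low abundance, at 0.02 and 0.05 times their members in the authors' deposited ALKBH5 table. RBM15, VIRMA, METTL14 and METTL16 overlap no listed gene. The part of opposite-strand reads in the values of the 6 members with a listed partner, METTL3 included, was not tested.

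**Figure D4:**
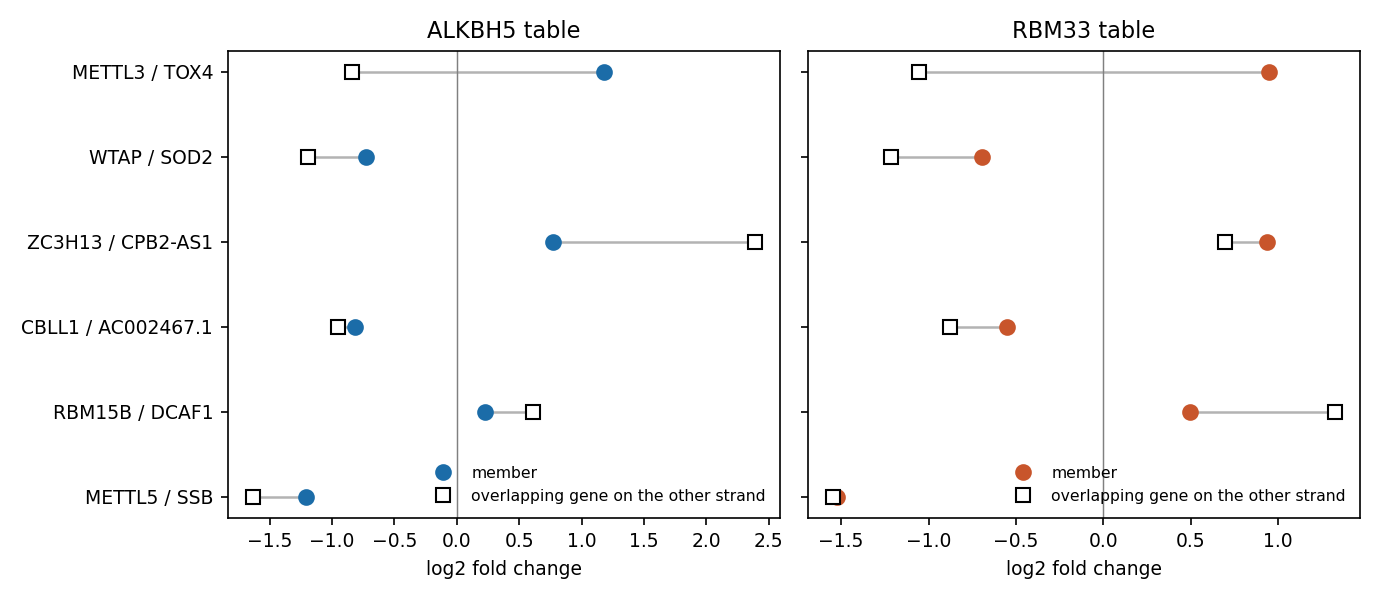
For each of the 6 members that overlap a listed gene on the other strand, the member's log2 fold change (filled circle) and that of the overlapping gene (open square) are joined by a line in the ALKBH5 (left) and RBM33 (right) tables, with log2 units on the x axis. METTL3 and TOX4 lie on opposite sides of 0, and METTL5 and SSB lie at -1.53 and -1.55 with RBM33.

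Other genes of the pathway were counted as whole lists, to be read against the shares of all genes called positive and negative, 30.5% and 29.1% with ALKBH5 and 24.0% and 27.0% with RBM33. MAT2A, the S-adenosylmethionine synthetase whose mRNA METTL16 methylates, had larger values than any writer, 3.11 (adjusted p = 4.92e-08) with ALKBH5 and 3.06 (adjusted p = 7.37e-06) with RBM33 in the authors' deposited tables. The list of methyl donor supply and recycling (MAT2A, MAT2B, AHCY, AHCYL1 and AHCYL2) had 2 of 5 genes positive and 3 negative for each bait in the authors' deposited tables. MAT2B, the regulatory subunit of the same synthetase, was negative at -0.96 (adjusted p = 0.0024) and -1.09 (adjusted p = 0.000851), with ALKBH5 and RBM33 in the authors' deposited tables. TRMT112, the partner that stabilises METTL5, was negative like METTL5, at -1.59 (adjusted p = 1.09e-06) with ALKBH5 and -1.33 (adjusted p = 5.16e-05) with RBM33 in the authors' deposited tables. The other 3 genes of its list of 4 further m6A writers and partners were called for neither bait.

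Among 13 m6A readers, 2 were positive and 2 negative with ALKBH5, and 3 and 2 with RBM33, with medians of 0.12 and 0.15 in the authors' deposited tables. YTHDC2, a helicase that binds m6A in the germ line, had 1.34 (adjusted p = 1.45e-06) with ALKBH5 and 0.94 (adjusted p = 0.00039) with RBM33 in the authors' deposited tables. HNRNPC, which binds uridine tracts opened by m6A, had -1.24 (adjusted p = 8.16e-06) and -1.12 (adjusted p = 0.000184), with ALKBH5 and RBM33 in the authors' deposited tables. Of the 2 erasers, 1 was called for neither bait. The other is the bait ALKBH5 itself, whose mRNA had 1.28 (adjusted p = 0.00158) with ALKBH5 and -0.21 (adjusted p = 0.245) with RBM33 in the authors' deposited tables. Its average abundance was 12.30 log2 CPM with ALKBH5 and 6.68 with RBM33 in the authors' deposited tables. The part of the introduced strep-ALKBH5 in these reads was not tested. The 16 other METTL family genes had 2 positive and 6 negative calls with ALKBH5 and 2 and 7 with RBM33, with medians of -0.23 and -0.47 in the authors' deposited tables. METTL9, a histidine methyltransferase of proteins, was the lowest of these at -1.81 (adjusted p = 4.67e-07) with ALKBH5 and -1.64 (adjusted p = 1.89e-05) with RBM33 in the authors' deposited tables. The 17 methyltransferases of other RNA marks had 6 positive and 8 negative calls with ALKBH5 and 3 and 6 with RBM33, with medians of -0.19 and -0.13 in the authors' deposited tables. FBL, the methyltransferase of small nucleolar RNA complexes, had -1.52 (adjusted p = 1.17e-06) and -1.15 (adjusted p = 0.000116) with ALKBH5 and RBM33, while CMTR2, a cap methyltransferase, had 1.33 (adjusted p = 0.000853) and 1.05 (adjusted p = 0.00371), in the authors' deposited tables. No test sets these lists against the writers.

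The genes most like METTL3 in both tables were MEF2D, DPH7 and JAG2, the nearest by Euclidean distance over the 2 log2 fold changes among 1243 protein-coding genes of like abundance. MEF2D, a transcription factor gene, had 1.17 with ALKBH5 and 0.96 with RBM33 in the authors' deposited tables. DPH7, an enzyme gene of diphthamide synthesis, had 1.16 and 0.97, and JAG2, a Notch ligand gene, 1.17 and 0.92, in the same order. Their distances from METTL3 were 0.016, 0.025 and 0.028 in log2 units.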

How the data were processed

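The submitters' processing notes name edgeR 3.24.3, used by the authors, HISAT2 2.1.0, Subread 1.6.4 with featureCounts, cutadapt 1.18 and the build hg38. No source used here gives the annotation release, contrast, direction or filters. Per the file headers, the authors deposited the fold change and the mean CPM of each gene as log2 values. The deposited F statistic is a score. The deposited p-value was derived from F, and the deposited FDR column, which Benjamini-Hochberg adjustment of the p-values over all 16324 genes gave back, is used as the adjusted p.

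Members were matched by gene name, and other lists also by older symbols. The members and lists were chosen with earlier results of these data known. All members were named, other list genes only if called in both tables, with genes overlapping a member and the 3 nearest to METTL3 within 0.5 of its abundance. An exception was ALKBH5, named as the bait though called only in its own table. The promoter motifs were chosen after the windows were read. The standard error was the log2 fold change over the square root of F, with the degrees of freedom at which F has its p-value. The 95% intervals are approximate, since the authors' edgeR fit may shrink fold changes slightly. The recovery of the standard error was checked on rows simulated with the same formulas, and the running median on a straight trend. These checks cover the arithmetic and not the authors' edgeR fit. Python 3.11.15, NumPy 2.4.6, pandas 2.3.3, SciPy 1.17.1 and Matplotlib 3.10.9 were used. Alternatives were a threshold of 0.01, a minimum of 1 log2 unit, adjustment over protein-coding genes, an abundance filter, centring, and a running median of 501 genes by length.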

Additional observations from a re-analysis of the deposited data

How the results depend on the processing

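A minimum size of 1 log2 unit left 1 negative member with ALKBH5 (of 3) and 1 positive (of 5) and 1 negative (of 3) with RBM33. Of all genes, 16.2% were negative under this rule with ALKBH5, and 17.1% were positive and 16.7% negative with RBM33. The counts were within 1.5 times of those reported under the other settings that give counts: a threshold of 0.01, adjustment over protein-coding genes, and only genes of at least median abundance. All 20 member values kept their call with adjustment over protein-coding genes and with the abundance filter. Centring on the protein-coding median, which lies at -0.08 with ALKBH5 and -0.13 with RBM33, moved no member by more than 1 standard error and turned no sign. Subtracting the running median at like length moved 11 of 20 values by more than 1 standard error and turned no called value, but uncalled METTL14 and VIRMA (ALKBH5) and METTL16 (both baits) turned negative. No paired analysis was possible because values of single libraries are not in the tables. For the same reason leaving out replicates and DESeq2 were not run.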
